A study of Sus scrofa with 4 samples.

Results

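Lactylation of lysine 12 on histone H4 (H4K12la) was mapped in sow liver, and the sequence described here is the set of 100 kb stretches in which called peaks of the high bile acid library lay closest together. Chromosomes 1 to 18 were cut into fixed bins of 100 kb, and a bin was selected on its high-list summit count: 5 or more peak summits of the high bile acid library made it a dense bin. Of 22660 bins, 924 (4.08%) were dense. They hold 5654 of the 28222 high-list peaks on these chromosomes (20%), which are called member peaks below, while the whole list has 28283 peaks, 61 of them on X and Y. That share follows from the way the bins were chosen and is given as a description.

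The study compared livers of late-gestation sows of a high bile acid group with livers of a low, or normal, bile acid group. Each group has 1 library immunoprecipitated with an antibody to H4K12la and 1 input library without antibody, so 4 samples in all and no replicates. The labels give the tissue as liver, the cells as hepatocytes and the sex as female, and name no genotype or strain. How many animals stand behind a library is not stated there. The deposited data are 2 lists of narrow peaks, called the high list and the low list below. A difference between them compares 2 libraries and has no replicate check, and no p-value between the groups was computed. All positions are in the pig assembly Sscrofa11.1.

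Histone lactylation is an acyl mark on lysine residues whose acyl group derives from lactate, so that the supply of lactate from glycolysis can bear on it. It was described first on core histones of cultured cells, where lactylated promoters were linked with transcription, and acetyltransferases and deacetylases are among the enzymes reported to add and remove it. Mammalian genes are unevenly spread: long gene-poor stretches alternate with short stretches crowded with small genes, which are common towards chromosome ends. The liver makes bile acids from cholesterol, and nuclear receptors that pair with the retinoid X receptor control much of that synthesis and transport.

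The dense bins are the upper tail of a graded distribution. The high list had a mean of 1.25 summits per bin, with a variance 1.88 times the mean. There were 9035 bins without a high-list summit and 6463 with 1, while 126 bins had 8 or more and 1 bin had 17. Just inside the threshold lay 415 bins with 5 summits, which hold 2075 high-list and 234 low-list peaks. Just outside it lay 950 bins with 4 summits, which hold 3800 high-list and 419 low-list peaks. Within a dense bin, neighbouring summits were a median of 9.09 kb apart (quartiles 3.72 to 19.4 kb), and 32.8% of the 4730 gaps were under 5 kb.

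The low list, which played no part in choosing the bins, was also denser there. Dense bins held 562 of the 5730 low-list peaks on these chromosomes (9.81%; 95% interval 9.05 to 10.6%) in 92.4 Mb, and the other bins held 5168 in 2173 Mb. This is 6.08 low-list summits per Mb in dense bins (5.59 to 6.61) and 2.38 per Mb in other bins (2.31 to 2.44), a ratio of 2.56 (2.34 to 2.79). At least 1 low-list summit was found in 395 dense bins (42.7%; 39.5 to 46.0%) and in 4415 other bins (20.3%; 19.8 to 20.9%), against 21.2% of all bins. The intervals do not overlap. Intervals are exact Clopper-Pearson intervals for shares, exact Poisson intervals for densities and exact conditional intervals for ratios, at 95%. They reflect counting error alone: amplified reads carried no molecular identifiers and need not be separate molecules, and neighbouring bins are treated as independent. Intervals for gene numbers and gene shares, given below, treat neighbouring genes of a fixed annotation as independent counts, so they are too narrow where genes cluster.

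The low-list density was higher in each class of high-list count up to 6 summits, and beyond that it varied within overlapping intervals. It was 1.75 summits per Mb in bins with no high-list summit, 2.26 with 1, 2.99 with 2, 3.75 with 3 and 4.41 with 4. In dense bins it was 5.64 with 5, 6.56 with 6, 5.61 with 7, 6.77 with 8, 6.30 with 9 and 8.53 with 10 or more. From 5 summits upwards the intervals of neighbouring classes overlap. Over all 22660 bins the 2 counts had a Pearson r of 0.195 and a Spearman rho of 0.161, given as a description, since bins share the same 2 libraries. On each of the 18 chromosomes the low list had more summits per Mb in dense bins than in other bins, with dense bins at 4.29 and other bins at 2.69 on chromosome 18, the lowest, and dense bins at 9.44 and other bins at 1.98 on chromosome 11, the highest.

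**Figure D1:**
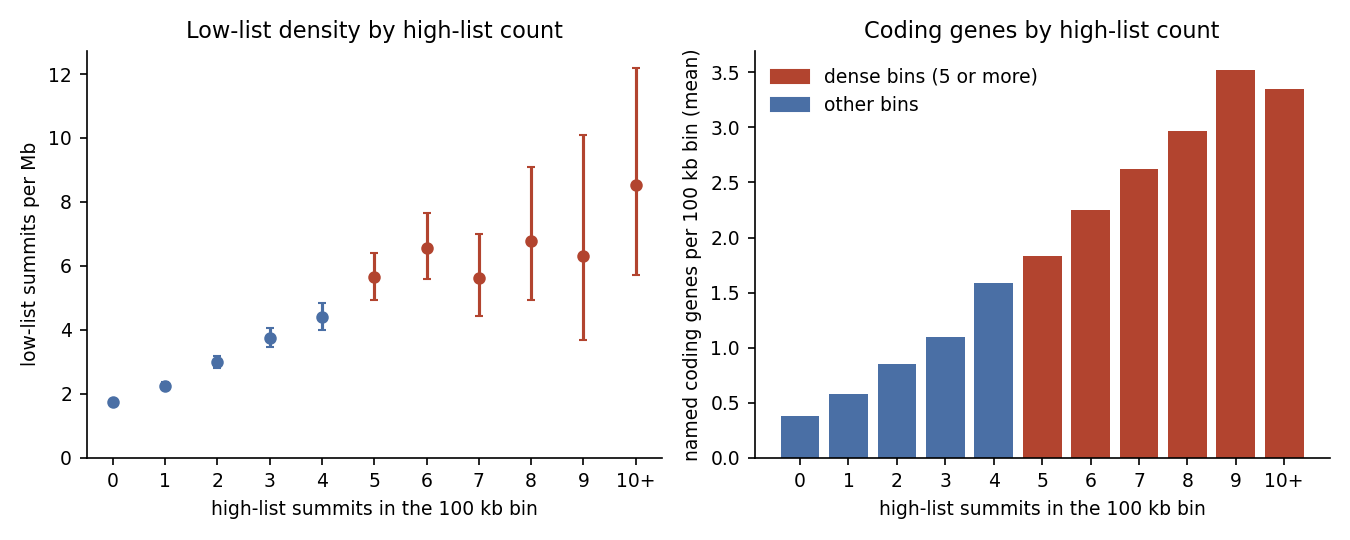
Left: low-list summits per Mb (points, with exact Poisson 95% intervals) by the number of high-list summits in the 100 kb bin. Right: mean number of named coding genes per bin by the same classes. Dense bins are red and other bins blue. The low-list density is 1.75 per Mb in bins without a high-list summit and 8.53 per Mb in those with 10 or more, and the gene number is 0.378 and 3.35 in the same classes.

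Few of these peaks lay at the same place in both lists. Of the member peaks, 53 (0.937%; 0.703 to 1.22%) were overlapped by a low-list peak by 1 bp or more, and of the other high-list peaks 153 (0.678%; 0.575 to 0.794%) were. Seen from the low list, 52 of its 562 peaks in dense bins (9.25%; 6.99 to 12%) overlapped a high-list peak, against 155 of 5168 in other bins (3.0%; 2.55 to 3.5%). High-list peaks cover 2.52% of the bases of dense bins and 0.402% of those of other bins, a difference fixed by the choice of bins. Low-list peaks cover 0.230% of the bases of dense bins and 0.0877% of those of other bins. Seen from either list, overlaps are thus not at like coverage, and the higher raw shares in dense bins do not show closer agreement there. The 53 overlapped member peaks lay in 49 dense bins.

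Dense bins were gene-rich. They held 2.24 named coding genes per bin (median 2, quartiles 1 to 3, highest 15), counted by gene midpoint, against 0.627 in other bins (median 0, highest 12), a ratio of 3.58 (3.42 to 3.75). No named coding gene had its midpoint in 172 dense bins (18.6%; 16.2 to 21.3%) and in 13167 other bins (60.6%; 59.9 to 61.2%). Among all 15706 named coding genes of these chromosomes, 2074 lay in a dense bin, which is 13.2% of the genes in 4.08% of the sequence. Counting genes of any type, dense bins held 2.98 per bin and other bins 1.11, a ratio of 2.68. Gene bodies covered 69.3% of the bases in dense bins and 56.1% in other bins.

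The genes of dense bins were also shorter, with a median length of 13.5 kb (quartiles 6.21 to 29.4 kb), against 28.7 kb in other bins (10.7 to 75.2 kb). The share placed in dense bins was 7.15% of 5206 long noncoding RNA genes (6.46 to 7.88%), 7.05% of 440 transfer RNA genes (4.84 to 9.85%) and 2.58% of 2096 pseudogenes (1.94 to 3.35%), each with an interval below that of named coding genes (12.7 to 13.7%). MicroRNA genes had a share of 13.3% of 270 (9.52 to 18%), close to that of named coding genes. The mean number of coding genes per bin also climbed with the high-list count, with 0.378 at no summit, 1.59 at 4, 1.83 at 5, 2.97 at 8, 3.52 at 9 and 3.35 at 10 or more, as the plot by high-list count shows. Over all bins the high-list count and the number of coding genes had a Pearson r of 0.379 and a Spearman rho of 0.304, as a description.

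At a like number of genes, the low list was still denser in most classes of dense bin. In bins without a coding gene the low list had 5.17 summits per Mb in 172 dense bins (4.16 to 6.37) and 1.85 in 13167 other bins (1.77 to 1.92). With 1 gene it had 6.4 in dense bins and 2.82 in other bins, with 2 genes 5.90 and 3.61, with 3 genes 5.87 and 3.96, with 4 genes 6.89 and 4.90, and with 5 genes 9.57 and 5.42. In bins with 6 or more genes it had 4.94 in 83 dense bins (3.54 to 6.70) and 5.31 in 143 other bins (4.19 to 6.65), where the direction turned and the intervals overlap. The intervals also overlap at 4 genes. With other bins weighted to the gene numbers of the dense bins, they had 3.45 low-list summits per Mb and the ratio was 1.77, where it was 2.56 unweighted; a low-list summit was present in 42.7% of dense bins and 27.9% of weighted other bins. Base composition was not assessed here.

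**Figure D2:**
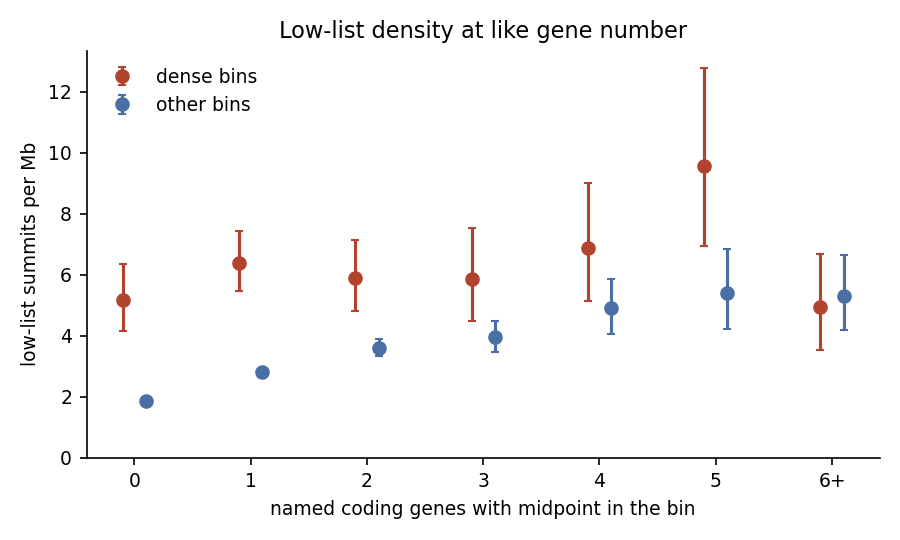
Low-list summits per Mb (points, with exact Poisson 95% intervals) in dense bins (red, left of each pair) and other bins (blue) by the number of named coding genes whose midpoint lies in the bin. Dense bins are higher in every class up to 5 genes, and at 6 or more genes they stand at 4.94 beside 5.31 per Mb in other bins.

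Not every dense bin was a cluster of genes. There were 129 dense bins with 5 or more coding genes (14%), against 274 other bins (1.26%), and 623 dense bins with 1 to 4 genes (67.4%). A further 89 dense bins (9.63%) lay wholly inside the body of 1 named coding gene, against 4062 other bins (18.7%). Their low-list density was 4.16 per Mb (2.93 to 5.73), against 2.1 in other bins of that kind (1.96 to 2.24). At the other extreme, 21 dense bins (2.27%) touched no annotated gene body, against 4208 other bins (19.4%). These 21 bins hold 113 member peaks and 10 low-list summits, 4.76 per Mb (2.28 to 8.76), against 1.33 per Mb (1.23 to 1.45) in other bins without a gene body. The classes overlap for bins that lie inside 1 gene and also hold its midpoint.

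Chromosome 12 stood out by its share of dense bins. It had 78 dense bins (12.7% of its bins; 10.1 to 15.5%), which hold 36.4% of its high-list peaks, and it carries 15.7 named coding genes per Mb, the highest of the 18. Chromosome 6 followed with 124 dense bins (7.26%), chromosome 3 with 95 (7.15%) and chromosome 2 with 95 (6.25%). The lowest shares were on chromosome 15 (28 bins, 1.99%), chromosome 8 (28 bins, 2.02%) and chromosome 1 (56 bins, 2.04%), and the intervals of these 3 overlap. Across the 18 chromosomes the share of dense bins and the number of coding genes per Mb had a Pearson r of 0.95 and a Spearman rho of 0.907, and r was 0.896 over the 17 chromosomes without chromosome 12. These values describe chromosomes of the same 2 libraries, which are not replicates.

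**Figure D3:**
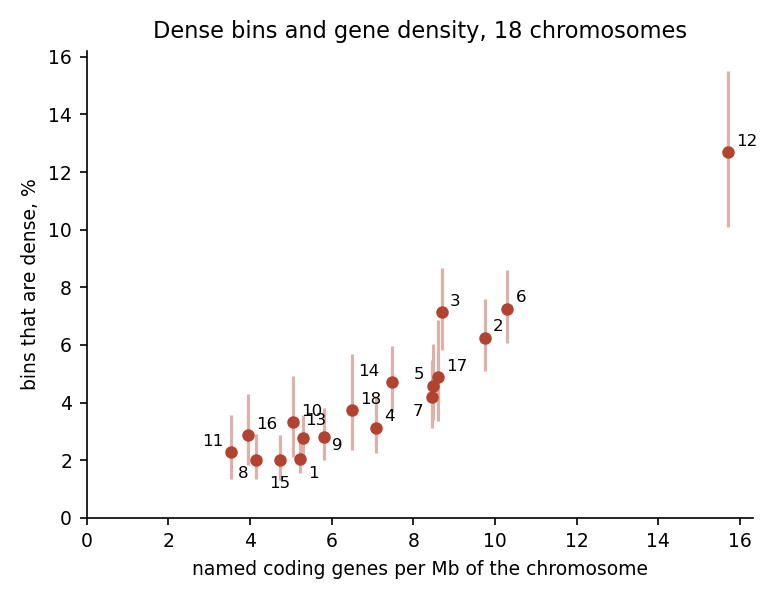
Percent of the 100 kb bins of a chromosome that are dense (points, with exact Clopper-Pearson 95% intervals) against the named coding genes per Mb of that chromosome, for chromosomes 1 to 18, each labelled by its number. Chromosome 12 lies at the upper right with 12.7% and 15.7 genes per Mb, and chromosome 15 has 1.99% and 4.73 genes per Mb.

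Dense bins gathered towards chromosome ends. Within 5 Mb of an end lay 255 dense bins (27.6%; 24.7 to 30.6%) and 1553 other bins (7.14%; 6.81 to 7.50%), and within 1 Mb lay 88 dense bins (9.52%) and 280 other bins (1.29%). The share of bins that were dense was 23.9% at 0 to 1 Mb, 16.1% at 1 to 2 Mb, 10.1% at 2 to 5 Mb, 6.50% at 5 to 10 Mb and 3.25% at 10 to 20 Mb. It was 2.63% at 20 to 40 Mb and 2.95% beyond 40 Mb, and from 10 Mb on the intervals of neighbouring classes overlap. Over all bins the number of coding genes per bin also declined over the first 5 Mb, with 1.53 at 0 to 1 Mb, 0.953 at 1 to 2 Mb and 0.628 at 2 to 5 Mb, and it was 0.845 at 5 to 10 Mb, 0.652 at 10 to 20 Mb, 0.657 at 20 to 40 Mb and 0.669 beyond. Dense bins had 2.70 coding genes at 0 to 1 Mb, 1.6 at 1 to 2 Mb and 1.28 at 2 to 5 Mb, and between 2.11 and 2.74 at the greater distances. The low list had 5.0 summits per Mb in dense bins of the outermost 1 Mb, against 3.34 in other bins there, and beyond 40 Mb it had 6.78 in dense bins and 2.19 in other bins.

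The ends differed among themselves. Of the 36 chromosome ends, 26 had a share of dense bins in their outermost 5 Mb above that of all bins, and 6 had no dense bin. The highest share was at the start of chromosome 8 with 20 of 50 bins (40.0%), although chromosome 8 as a whole had one of the lowest shares. The start of chromosome 12 followed with 18 of 50 (36.0%), that of chromosome 6 with 17 of 50 (34.0%) and that of chromosome 2 with 16 of 50 (32.0%). The far end of chromosome 1 had 14 of 51 bins (27.5%), against 2.04% of the whole chromosome.

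**Figure D4:**
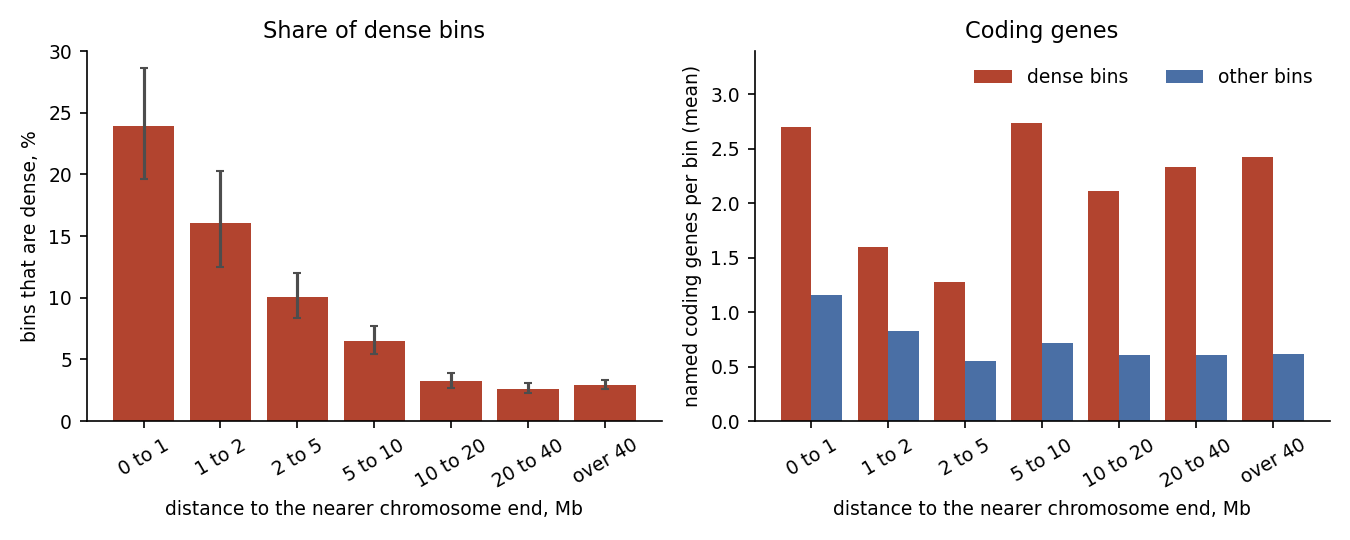
Left: percent of bins that are dense (bars, with exact Clopper-Pearson 95% intervals) by distance to the nearer chromosome end. Right: mean named coding genes per bin in dense bins (red) and other bins (blue) at the same distances. The share of dense bins is 23.9% in the outermost 1 Mb and 2.95% beyond 40 Mb, while dense bins carry more genes than other bins at each distance.

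Many dense bins stood side by side. A dense bin was next to another dense bin in 353 cases (38.2%; 35.1 to 41.4%), against 6.11% of other bins that were next to a dense bin. There were 571 single dense bins, 107 runs of 2, 22 of 3, 12 of 4, 3 of 5 and 1 of 10. The run of 10 was chr2:76800001-77800000, which holds 72 high-list and 4 low-list summits and the midpoints of 52 named coding genes. Among them are TCF3, a basic helix-loop-helix transcription factor, STK11, the kinase upstream of AMP-activated kinase, GPX4, which reduces lipid peroxides, and POLRMT, the mitochondrial RNA polymerase. This run lies 74.1 Mb from the nearer chromosome end.

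The runs of 5 bins were at chr3:39700001-40200000, chr6:800001-1300000 and chr5:9700001-10200000. The run on chromosome 3 holds 34 high-list and 1 low-list summit and 35 genes, among them the polycystin gene PKD1 and TSC2, an inhibitor of mTOR signalling. That on chromosome 6 holds 34 high-list and 2 low-list summits and 16 genes, among them PIEZO1, a mechanically gated channel, and MVD, an enzyme of the mevalonate pathway. The run on chromosome 5 holds 32 high-list and 3 low-list summits and 18 genes, among them SOX10 and LGALS1. Of the runs of 4, chr12:800001-1200000 holds 42 high-list and 1 low-list summit and 26 genes, among them FASN, the fatty acid synthase, GCGR, the glucagon receptor, and SLC16A3, a lactate transporter. The run chr15:139500001-139900000 holds 37 high-list and 1 low-list summit and 11 genes, among them AGXT, a peroxisomal transaminase of liver. The run chr1:273400001-273800000 holds 43 high-list and 9 low-list summits with only 2 gene midpoints, those of WDR5, a subunit of histone methyltransferase complexes, and RXRA. Genes named for the runs are examples from longer lists, and a place in a run does not mean that a member peak lies at the gene. High-list counts in these runs were fixed by the choice of bins, while low-list counts and genes were not. Over all dense bins the low list had 6.08 summits per Mb, and a run of 10 bins is 1000 kb long.

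Member peaks were like the rest of the high list in median fold and fragments, while somewhat more of them were wide or had a low q-value. The fold, by which the authors' caller expresses a summit's fragments relative to the number expected from input, had a median of 2.89 (quartiles 2.60 to 3.25, highest 5.39) in member peaks and 2.90 (2.60 to 3.28, highest 5.70) in other high-list peaks. The caller adds the same constant to both numbers, so a fold is below their plain quotient. The median number of fragments at the summit, recovered from fold and p-value, was 9 in both (quartiles 8 to 10). Widths had medians of 373 bp in member peaks and 351 bp in other high-list peaks, and 4.10% of member peaks and 2.30% of other high-list peaks were 700 bp or wider. The authors' q-value, which corrects a peak's p-value for the number of places tested within its own library, was under 0.05 for 176 member peaks (3.11%; 2.68 to 3.6%) and 426 other high-list peaks (1.89%; 1.71 to 2.07%). These values come from the list that chose the bins and are descriptions.

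Most dense bins held no strongly called peak, although such peaks were more frequent there than in other bins. A member with q under 0.05 was present in 163 dense bins (17.6%), and 13 bins had 2, the highest number. The 924 dense bins held 176 such peaks and the 21736 other bins 426. Dense bins were chosen for their number of high-list peaks, so a higher number per bin follows in part from that choice. In the low list, 1 of the 562 peaks in dense bins had q under 0.05, against 11 of 5168 in other bins. The expected number of fragments at the summit, which the caller takes from input, had a median of 2.41 in member peaks and 2.24 in other high-list peaks, and it stood at its floor of 1.98 in 12.7% of member peaks and 22.5% of other high-list peaks. In the low list it was 2.33 in dense bins and 2.09 in other bins. Called sites of dense bins thus had a higher local background in both libraries, and the part of this in the clustering was not tested.

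A larger share of member peaks than of other high-list peaks lay at gene ends, where dense bins also have more gene-end sequence. The annotation gives no strand, so a gene end here is within 1 kb of either end of a gene, one of which holds the start site. Summits lay at a gene end for 871 member peaks (15.4%; 14.5 to 16.4%) and 2358 other high-list peaks (10.4%; 10.1 to 10.9%). A further 61.5% of member peaks and 55.3% of other high-list peaks lay inside a gene, and 23.1% of member peaks and 34.3% of other high-list peaks lay outside genes. In the low list the gene-end share was 13.7% (11 to 16.8%) in dense bins and 10.1% (9.25 to 10.9%) in other bins. Gene-end windows covered 10.1% of the bases of dense bins and 3.91% of those of other bins. The gene-end share was thus 1.53 times the covered share for member peaks and 2.67 times for other high-list peaks, and for the low list 1.36 times in dense bins and 2.57 times in other bins.

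A member peak lay at a gene end of 737 named coding genes, 4.69% of all 15706, and 100 of these had 2 or more. They make up 27.4% of the 2690 genes with any high-list gene-end peak. By midpoint, 689 of the 2074 genes in dense bins (33.2%) had a high-list gene-end peak, against 2001 of 13632 in other bins (14.7%), a description of the list that chose the bins. A low-list gene-end peak was present at 63 genes of dense bins (3.04%; 2.34 to 3.87%) and 448 genes of other bins (3.29%; 2.99 to 3.6%), with overlapping intervals. The low list was therefore denser per Mb in dense bins without a detectable excess per gene at gene ends. At least 1 gene-end member was found in 505 dense bins (54.7%), and in 44 dense bins every summit lay outside genes and gene ends.

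The bin with the highest count was chr1:273700001-273800000, with 17 high-list and 6 low-list summits. RXRA, which encodes the retinoid X receptor alpha that pairs with the farnesoid X, liver X and other nuclear receptors, spans positions 273698842 to 273797622 and covers nearly all of it. All 17 member summits lay inside RXRA and none within 1 kb of its ends. Their folds ran from 2.29 to 5.03 with a median of 2.78, and 1 had q under 0.05. That peak, at chr1:273700465-273700947, had 14 fragments (exact Poisson interval 7.65 to 23.5) where 1.98 were expected. Its fold was 5.03 and its q 0.00241, and its summit was 1878 bp from the nearer gene end.

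The 6 low-list summits in RXRA had folds of 2.90, 2.89, 2.75, 2.46, 3.46 and 3.21, each with a q of 1. No other dense bin had as many. The low-list peak of fold 3.46 at chr1:273760648-273761590 overlapped a member of fold 3.36 at chr1:273760697-273761138, and this was the only overlap in the bin. The neighbouring bin, chr1:273600001-273700000, had 12 high-list and 0 low-list summits, of which 10 lay outside genes, 1 at a gene end and 1 inside a gene. Both bins lie within 0.631 Mb of the end of chromosome 1.

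**Figure D5:**
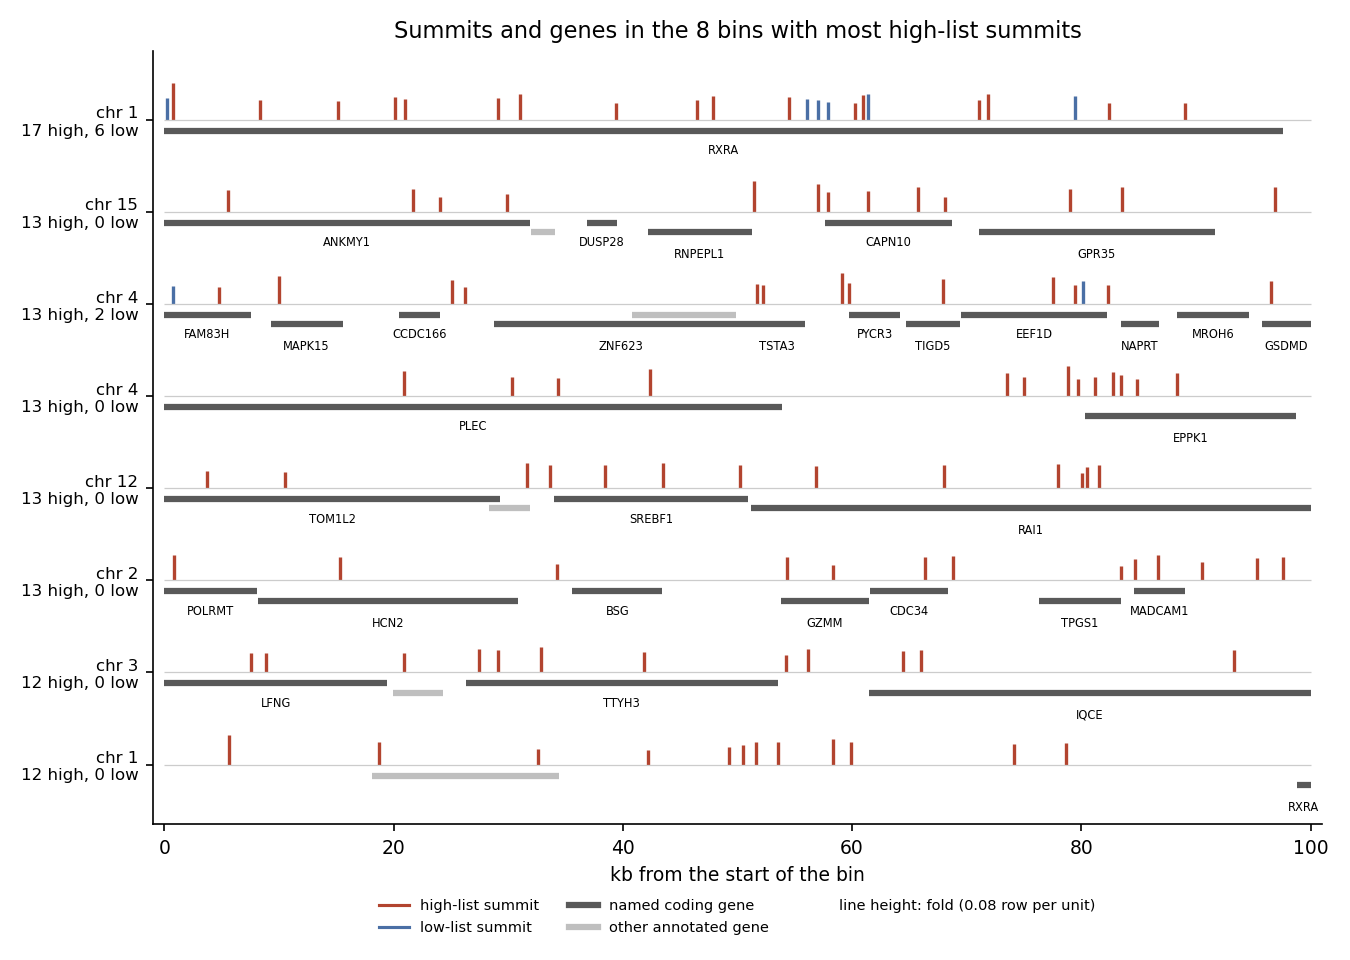
Positions of high-list summits (red lines) and low-list summits (blue lines) in the 8 dense bins with most high-list summits, in kb from the start of the bin, with line height proportional to the fold. Bars under each line are named coding genes (dark, labelled) and other annotated genes (light). RXRA fills the first bin with 17 high-list and 6 low-list summits. No low-list summit lies in 6 of the 8 bins. Lacking one is common: 57.3% of all dense bins have none, and only 21.2% of all bins have at least 1.

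The 5 bins with 13 high-list summits were gene clusters or long genes. Of these, 4 had no low-list summit. Lacking one is common: 57.3% of all dense bins had none, and only 21.2% of all bins had 1 or more. In chr15:139500001-139600000, RNPEPL1, an aminopeptidase-like gene, had a gene-end member of fold 4.21 (q 0.0306, 13 fragments), and CAPN10, which encodes a calpain protease, had 3 gene-end members, the strongest of fold 3.83 (q 0.0399, 14 fragments). ANKMY1 and GPR35, an orphan G protein-coupled receptor, had only members inside the gene, 4 and 2 in number, and DUSP28 had none. The bin chr4:900001-1000000 holds 10 coding gene midpoints and 2 low-list summits of folds 2.45 and 3.11. There PYCR3, an enzyme of proline synthesis, had a gene-end member of fold 4.21 (q 0.0136, 15 fragments), MAPK15, an atypical MAP kinase, one of 3.84 (q 0.0743), and GSDMD, the pore-forming protein of pyroptosis, one of 3.06 (q 0.258). ZNF623 and TSTA3 share a gene-end member of fold 2.71, and EEF1D, a translation elongation factor subunit, had one of 2.60. CCDC166, NAPRT and MROH6 in the same bin had no member peak.

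The other bins at the top of the order were of like make-up. In chr4:700001-800000, PLEC, which encodes the cytoskeletal linker plectin, had 4 members inside the gene and EPPK1, its relative epiplakin, had 6 members, 2 of them at a gene end. In chr12:60700001-60800000, SREBF1, the transcription factor of fatty acid and sterol synthesis, had 4 members. Its strongest gene-end member had a fold of 3.12 (q 0.232, 11 fragments, 2.85 expected), and the same peak lay at the near end of RAI1. TOM1L2 had 2 members in this bin and 2 in the neighbouring one, all inside the gene and none at its ends. In chr2:77700001-77800000, gene-end members lay at GZMM with a fold of 3.19, at CDC34, a ubiquitin-conjugating enzyme, with 3.28, at MADCAM1 with 2.85 and at TPGS1 with 1.91. POLRMT and HCN2 had 1 member each inside the gene, and BSG, the chaperone of lactate transporters, had none. In chr3:1800001-1900000, LFNG, a glycosyltransferase that modifies Notch, had 2 members inside, IQCE 3 inside and TTYH3 5, of which the gene-end one had a fold of 2.34.

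Among dense bins, the RXRA bin had most low-list summits, and the next 4 were not among the 8 with most high-list summits. Of all bins, 14 had 4 or more low-list summits, 5 of them dense and 9 not. After the RXRA bin came chr12:3800001-3900000, with 5 summits in each list over TMC8, TMC6 and TNRC6C. TMC8 and TMC6 overlap each other, and a member of fold 4.40 (q 0.00901) lay inside both. A low-list peak of fold 3.29 lay at a gene end of TMC8 and inside TMC6. The lists did not overlap in this bin. The bin chr6:4100001-4200000, over COTL1 and TLDC1, had 7 high-list and 4 low-list summits without overlap, and TLDC1 held a member of fold 4.36 (q 0.0310). The bin chr6:81800001-81900000, over MYOM3, IL22RA1 and IFNLR1, had 6 high-list and 4 low-list summits, with 2 overlaps. The bin chr12:2100001-2200000 had 5 high-list and 4 low-list summits and touches no annotated gene.

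The strongest gene-end members belonged to genes of varied function. CDC42EP5, an effector of the GTPase CDC42, and its neighbour LENG9 share a peak at chr6:58857034-58857612 with a fold of 5.39 (q 0.000155), 16 fragments (9.15 to 26.0) and 2.16 expected. PIGL, an enzyme of glycosylphosphatidylinositol synthesis, had a fold of 4.79 (q 0.00484), and LOXL4, a lysyl oxidase of the extracellular matrix, one of 4.70 (q 0.0106). SCAMP2 and the kinase gene ULK3 share a peak of fold 4.64 (q 0.0106). OSBPL5, a lipid transfer protein of the oxysterol-binding family, followed with 4.62, CCDC86 with 4.54, the septin gene SEPT9 and the deubiquitinase gene USP25 with 4.47 each and MRPL33, a mitochondrial ribosomal protein, with 4.43. PDLIM2 had 4.34, FAM212A and the ubiquitin ligase gene TRAIP share a peak of 4.33, and ZNF689 had 4.29. All 15 had q under 0.05, with 13 to 16 fragments, and PDLIM2 alone among them had a low-list gene-end peak.

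In dense bins, 23 genes had a gene-end peak in both lists, at the same or at opposite ends. They are 3.12% of the 737 genes with a gene-end member, close to the share of genes at large with a low-list gene-end peak (3.04% in dense bins and 3.29% in other bins). At 12 of the 23 a gene-end member and a low-list gene-end peak overlapped. At PDLIM2 the overlapping peaks had folds of 4.34 (high, q 0.00693) and 2.94 (low, q 1). C15H2orf54 had 3.69 (high) and 3.10 (low), and VAPB, an endoplasmic reticulum contact protein, 3.12 (high) and 2.89 (low), each with overlap. RHOG, a small GTPase, had 2 gene-end members, of which the stronger, of fold 3.35, did not overlap the low-list peak of fold 2.68 and the other did. PEF1, with high-list and low-list folds of 3.69 and 3.04, POP7 with 3.68 and 2.70, CHRNG with 3.46 and 2.57, the phospholipase gene PLD2 with 3.12 and 3.02, NIPSNAP2 with 3.12 and 2.31 and AMOTL2 with 3.09 and 2.31 had peaks in both lists that did not overlap. Folds are relative to each library's own input and were not compared between the lists.

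Some long genes were spanned by several dense bins. Genes with most members were named after their values were seen. Low-list peaks are counted here in the dense bins of the gene. GSE1 held 22 members and 0 low-list peaks, RPTOR, the Raptor subunit of the mTOR complex, 22 and 1, SNX29, a sorting nexin, 20 and 2, and TNS1, a tensin of focal adhesions, 17 and 1. NTN1, the netrin guidance cue, held 15 members and 3 low-list peaks, SEPT9 14 and 0, ZMIZ1, a transcriptional coregulator, 14 and 4, ABR 13 and 1, MSI2, an RNA-binding protein, 13 and 1, CDH23 11 and 0 and KAZN 11 and 1. In GSE1, SNX29, TNS1, NTN1, ZMIZ1, MSI2, CDH23 and KAZN no member lay within 1 kb of a gene end. In the 89 dense bins wholly inside a gene, the 518 members had a gene-end share of 1.93%, against 33.0% of the 857 members in bins with 5 or more genes. This contrast is largely fixed by how these classes were defined, since bins inside a gene hold few gene ends.

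Genes of bile acid and lipid metabolism were read against the 13.2% of all named coding genes that lay in dense bins and the 4.69% with a gene-end member. Lipid and cholesterol genes had 9 of 30 in dense bins (30%; 14.7 to 49.4%), among them FASN, SREBF1, INSIG1, DHCR7, LPIN1, LCAT, APOC4 and APOC2. The interval starts just above the background, no test was made and APOC4 and APOC2 are neighbours. Gene-end members lay at SREBF1 (fold 3.12), at INSIG1, which holds sterol regulatory proteins in the endoplasmic reticulum (2.86, q 0.326), and at FASN (2.08, q 0.711). Bile acid synthesis genes had 2 of 13, HSD3B7 and SLC27A5, and SLC27A5, which activates bile acids for conjugation, had a gene-end member of fold 3.23 (q 0.176). Bile acid transport genes had 1 of 20, SLCO2B1, without a gene-end member.

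Bile acid signalling genes had 5 of 19 in dense bins (26.3%; 9.15 to 51.2%), namely RXRA, the membrane receptor GPBAR1, NR1H3, which encodes liver X receptor alpha, PPARA and the corepressor NR0B2. Only NR1H3 had a gene-end member, of fold 3.69 (q 0.139, 10 fragments), with a low-list peak of fold 2.14 inside the gene. JUN, the AP-1 subunit named in the study's title, CYP7A1, the rate-limiting enzyme of bile acid synthesis, ABCB11, the bile salt export pump, and ALB had no member peak, and ABCB11 had a low-list peak of fold 3.64 inside the gene. AP-1 family genes had 6 of 26 in dense bins (23.1%; 8.97 to 43.6%), among them MAFG, BATF2, JUNB, ATF4 and ATF5, and MAFG had a gene-end member of fold 2.34 (q 0.548). The MAP kinase cascade had 9 of 39 (23.1%), with gene-end members at MAPK15, MAP2K3 (3.35), MAPK12 (3.01) and MAP3K14. The intervals for bile acid signalling, AP-1 and MAP kinase cascade genes hold the 13.2% of all genes.

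Genes that handle lactate or the mark showed no share beyond the background's reach. Glycolysis and lactate genes had 7 of 34 in dense bins (20.6%; 8.70 to 37.9%), namely PFKP, PFKL, HK1, ENO3, BSG and the transporters SLC16A3 and SLC16A8. A gene-end member lay at ENO3 (2.50, q 0.381), and a low-list gene-end peak at PFKL. Enzymes reported to add or remove lactyl groups, and related ones, had 4 of 18 (22.2%; 6.41 to 47.6%): the acetyltransferase KAT2A, the deacylases SIRT3 and HDAC1, and HAGH, a glyoxalase. HDAC1 had a gene-end member of fold 3.09 (q 0.258), and HAGH a low-list gene-end peak.

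Most gene families defined by symbol had shares whose intervals hold the 13.2% of all genes. None of 36 HOX cluster genes lay in a dense bin (up to 9.74%), nor did any of 15 swine leukocyte antigen genes (up to 21.8%), and the genes of both families lie in a few clusters and are not independent placements. Cytochromes P450 had 1 of 36 (2.78%; 0.0703 to 14.5%), CYP2D25, with a gene-end member of fold 2.28 at 6.44 expected fragments. Zinc finger genes had 31 of 228 (13.6%), 12 of them with a gene-end member, led by ZNF689 and ZNF408 (4.13, q 0.0247). Solute carriers had 54 of 347 (15.6%; 11.9 to 19.8%), and 21 solute carriers had a gene-end member, led by SLC25A22 (4.15, q 0.0370) and SLC26A2 (3.80). Transmembrane protein genes had 33 of 227 (14.5%) and 12 gene-end members, led by TMEM79 (3.66).

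Smaller families stood around the background. Ribosomal protein genes had 10 of 74 (13.5%) in dense bins and 1 gene-end member, at RPL23A (3.38), and mitochondrial ribosomal protein genes had 12 of 71 (16.9%) and 4 gene-end members, led by MRPL33. Proteasome subunit genes had 8 of 38 (21.1%; 9.55 to 37.3%) and 5 gene-end members (13.2%), at PSMB11 (3.20) and its neighbour PSMB5 (3.17), PSMB6 (2.56), PSMB3 and PSMD9. Keratins had 4 of 33, protocadherins 2 of 11, serpins 3 of 25, claudins 3 of 21, chemokines 3 of 28 and UDP-glucuronosyltransferases 1 of 4. Gene-end members among them lay at KRT79 (2.60), SERPINA11 and SERPINB9 (2.68 each), CLDN3 (2.89), CLDN4 (2.63), CXCL14 (3.87) and CCL4 (3.36). Histone genes and olfactory receptors had no annotated member under the symbols searched.

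Cell cycle genes had 1 of 21 in dense bins (4.76%), E2F2, with a gene-end member of fold 3.36. Housekeeping genes of broad expression had 4 of 25 (16%), namely POLR2A, RPLP0, ACTB and TUBB, and gene-end members lay at POLR2A (3.20) and ACTB (2.24 at 5.70 expected fragments), among others. The intervals of the cell cycle and housekeeping lists hold the 13.2% of all genes.

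Peak lists do not measure expression, so the labelled hepatocytes could be checked only for peaks at marker genes. Hepatocyte markers had 6 of 23 in dense bins (26.1%; 10.2 to 48.4%), namely ASGR1, ASGR2, ITIH1, PCK1, F2 and SERPINA1, with gene-end members at ITIH1 (3.12) and ASGR2 (2.60). Cholangiocyte markers had 2 of 10, SCTR and CLDN4, both with gene-end members. Endothelial markers had 1 of 12 (PECAM1), Kupffer and myeloid markers 2 of 15 (CSF1R and TYROBP), stellate and fibroblast markers 1 of 11 (PDGFRB), erythroid markers 1 of 7 (SLC4A1) and lymphocyte markers 0 of 14, all without a gene-end member. Among all named coding genes, 13.2% lay in dense bins and 4.69% had a gene-end member. The interval of each marker list, hepatocyte markers included, holds the 13.2%, so these counts do not tell cell types apart. The median number of members per gene was 0 in each list that had an annotated gene.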

How the data were processed

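H4K12la chromatin immunoprecipitation libraries and input libraries of 2 groups were used; groups came from the sample titles. The tools named per the submitters' processing notes are MACS2 2.1.0, Bowtie 1.1.2, Trimmomatic 0.33 and bcl2fastq 2.17. Both hg38 and Sscrofa11.1 are named there; the peaks lie on pig chromosomes. The deposited lists give, per peak, the authors' fold enrichment at the summit (a ratio), the −log10 p-value, the −log10 q-value and a display score that was not used. Each immunoprecipitated library has its own list, per the labels. No cutoff for calling is given in the sources used here; in either deposited list p-values reached 0.00989. Library depth is unknown, but fragments at the summit were recovered from fold and p-value: they came out whole within 0.002 (−log10 p) for 100% of high-list and 99.9% of low-list peaks, with the low library's pileup scaled by a factor recovered from the values.

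Summits were placed in 100 kb bins from position 0, with 5 or more high-list summits making a bin dense. Genes were placed by RefSeq's Sscrofa11.1 table, without strand or exons, so start sites were not told apart from transcript ends, nor exons from introns. The end of a chromosome was taken as the last annotated or called base. No genome sequence was used here, so no sequence is printed and base composition was not assessed. Members and the 34 gene lists were chosen with earlier results of these data known. Genes named are those overlapping the 8 bins with most high-list and the 5 dense bins with most low-list summits, the 15 with the strongest gene-end members, up to 10 with gene-end peaks in both lists and up to 3 per gene list by fold; further names complete short counts, describe runs or were chosen after their values were seen, and a few genes are not reported here. Intervals are exact (scipy 1.17.1, with pandas 2.3.3, numpy 2.4.6 and matplotlib 3.10.9 under Python 3.11.15). The binning and the recovery of fragments were tested on simulated data. Alternatives changed the bin length, the threshold, the fold minimum, the window and the gene count, and left out chromosome 12.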

Additional observations from a re-analysis of the deposited data

How the results depend on the processing

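No paired analysis was possible because a group holds a single immunoprecipitated library, and no replicate could be left out. The main values were a density ratio of low-list summits (dense over other bins) of 2.56, a coding gene ratio of 3.58, a gene-end share of members of 15.4% and a share of dense bins with a low-list summit of 42.7%. Both ratios stayed above 1 under each alternative run. At 4 or more summits these quantities were, in the same order, 2.29, 3.28, 14.5% and 38.6%. At 7 or more summits the gene ratio was 4.33 and the gene-end share 17.9%. With high-list peaks of fold 3 or more, which left 100 dense bins, the ratios were 2.99 and 4.04 and the gene-end share 17.4%. In 200 kb bins with 8 or more summits the gene ratio was 3.85, the gene-end share 16.6% and the share with a low-list summit 63.6%, and in 50 kb bins with 4 or more that share was 27.4%; a longer bin holds more summits of any kind. Bins starting at 50 kb gave a gene-end share of 16.5%, and a 3 kb window one of 32.2%. The gene ratio was 2.66 with genes that overlap the bin and 2.68 with genes of any type. The density ratio was 2.15 with low-list peaks of fold 3 or more and 1.77 with other bins weighted to the gene numbers of dense bins. In alternatives chosen after the data were seen, the gene ratio was 3.87 without the 5 Mb at chromosome ends, the density ratio 2.15 against other bins with 1 or more high-list summit, and the gene-end share 21% for members of q under 0.05. Where no construction of the alternative shows it, the cause was not tested. Without chromosome 12 each value stayed within its interval. With 1 library per group, about 9 fragments at a median summit and a q above 0.05 for most peaks, single members are uncertain. The description rests on counts over bins, which are made of the same calls. Whether the higher local background of dense bins bears on those counts was not tested.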

Other observations

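Gene-rich sequence without high-list peaks was also present. Of 226 bins with 6 or more coding genes, 83 (36.7%) were dense and 12 (5.31%) had no high-list summit. Among these 12 were chr5:64100001-64200000, which holds the glycolytic gene GAPDH and 7 other named coding genes, chr7:23600001-23700000 with SLA-6, SLA-7 and SLA-8, chr7:24000001-24100000 with the complement genes C2, CFB and C4A, and chr1:201600001-201700000 and chr1:201700001-201800000 with interferon genes of the alpha, delta and omega families. Interferon and SLA genes include near-identical copies, and how reads were shared among copies is not known here.

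Of 120 bins with 3 or more low-list summits, 30 (25%) were dense and 15 (12.5%) had no high-list summit, where 4.08% of all bins were dense and 39.9% had no high-list summit. The bin chr18:38000001-38100000, at the septin gene SEPT7, had 4 low-list and 0 high-list summits. Bins at GNAQ, a G protein subunit, and SLC16A10, an aromatic amino acid transporter, had 3 low-list and 0 high-list summits. No low-list summit was present in 66 of the 126 dense bins with 8 or more high-list summits (52.4%) and 529 of all 924 dense bins (57.3%). A low-list summit was present in 42.7% of dense bins against 21.2% of all bins, so dense bins lacked one less often.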
